A study of Sus scrofa with 32 samples.

Results

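Ileal CD2- γδ T cells were taken from 6 ileal single-cell libraries by the transcripts counted in each barcode. A member had at least 1250 UMIs (unique molecular identifiers, each standing for 1 captured transcript), at least 550 genes and at most 12.5% of its UMIs from mitochondrial genes. It held at least 1 UMI of CD3E and of TRDC, at least 1 UMI of BLK or RHEX, and 0 UMIs of CD2, CD79B, MS4A1, CD8B and EPCAM. Of 35386 ileal barcodes that passed the quality thresholds, and of 48629 in the whole series, 341 were members. Because measured counts of these 9 genes chose the cells, their values are given as a description only.

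The cells came from 2 mixed-breed pigs of 7 weeks from commercial nurseries, a female (pig 1) and a male (pig 2), for which the labels name no treatment and no genetic change. Each distal ileum gave a piece with only regions that hold Peyer's patches (PP), a piece without such regions (non-PP) and a full cross section with both (whole ileum). Epithelium, lamina propria, submucosa and any Peyer's patches of a piece went into the same cell suspension, so PP also held epithelium and lamina propria. Peripheral blood mononuclear cells (PBMC) came from the same pigs. Each of the 8 droplet libraries was sequenced in 4 runs, which are 1 replicate. With 1 pig of each sex, pig and sex cannot be told apart. The p-values below rest on 2 pigs or 2 libraries a group, and those of the gene tests also pool the spread over groups and genes. The ileal sums of pig 1 include the library labelled whole ileum pig 1, which held Y-linked transcripts. If that label is wrong, their distance from pig 2 is not the spread between 2 animals.

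T cells carry either an αβ or a γδ T cell receptor, and the γδ receptor holds the delta constant chain encoded by TRDC beside the CD3 chains. Pigs carry many γδ T cells in blood and gut, and these are divided by surface CD2, an adhesion receptor that binds CD58 on other cells. The CD2+ set often bears CD8α and can kill target cells, whereas the CD2- set is abundant in the blood of young pigs. BLK is a Src-family tyrosine kinase known from B cells and from some γδ T cells, and RHEX is an adaptor protein first described in red cell precursors.

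The libraries held 21134542 to 40111934 UMIs and 3776 to 7704 passing barcodes. The library labelled whole ileum pig 1 went against its label: it held 207 CPM (the UMIs of a gene divided by all UMIs of the cells summed, times 1000000) of Y-linked transcripts, against 0.161 in PP and 0.224 in non-PP of the same female. Counts of genes are therefore also given without it. Of 47295 distinct passing barcodes 1319 occurred in more than 1 library, 15 member barcodes among them, and 0 were members in more than 1. A doublet score above 0.25 was found in 2 of the 341 members.

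PP held 55 members in pig 1 and 74 in pig 2, non-PP held 39 and 56, and whole ileum held 49 and 68. RHEX was the more frequent of the pair of positive markers: 232 members had UMIs of both genes, 94 of RHEX only and 15 of BLK only. Summed over the members of a library, BLK stood at 432 to 537 CPM and RHEX at 1004 to 2000 CPM. In CD2+ γδ T cells, defined by the same terms with at least 1 CD2 UMI and any BLK or RHEX count (3030 cells), they stood at 10.5 to 25.2 and 9.95 to 40.2 CPM. Ileal B cells (CD79B and MS4A1 present, CD3E, TRDC and EPCAM absent) held BLK as well, at 166 and 157 CPM in pigs 1 and 2, and little RHEX, at 0.797 and 0.599 CPM. RefSeq places BLK at chr14:14688489-14745946 on Sscrofa11.1.

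Genes outside the rule were used to check the label. The 3 further chains of the receptor complex were present in all 6 libraries, CD3D at 366 to 632 CPM, CD3G at 1084 to 1879 CPM and CD247 at 1672 to 2459 CPM. CD4, the coreceptor of helper αβ T cells, was read in 1 of 341 members, and CD8A in 50 (14.7%), against 44.6% of the 2919 CD2+ cells without BLK and RHEX. Markers of other cells were also read in members. The 15 B cell markers summed to 121 to 575 CPM over the 6 libraries, against 396 to 1404 in CD2+ γδ T cells and 1825 to 4013 in B cells, with FCER2 at 0. The 17 myeloid and mast cell markers summed to 122 to 698 CPM, against 140 to 318 in CD2+ γδ T cells and 213 to 416 in B cells, with CD68, C1QC, FLT3, XCR1 and MS4A2 at 0. The 11 αβ T cell markers other than CD8B summed to 151 to 286 CPM, against 456 to 546 in CD2+ γδ T cells, with FOXP3 at 0. The 19 epithelial markers ranged most widely, from 83.0 to 2572 CPM, against 109 to 2543 in CD2+ γδ T cells and 80.0 to 2073 in B cells, with KRT18, VIL1, APOC3, MUC2 and OLFM4 at 0.

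Clustering of all 3880 ileal CD3E- and TRDC-positive cells without the 9 genes of the rule placed most members together. Cluster 5 of 11 clusters numbered from 0 held 284 of the 341 members (83.3%), which made up 89.9% of its 316 cells. In single libraries between 72.7% (PP pig 1) and 87.8% (PP pig 2) of the members lay in it. Of 24 members just inside the threshold, with exactly 1 BLK or RHEX UMI, 15 (62.5%) were in cluster 5, and of 285 members with at least 3 such UMIs 244 (85.6%). Just outside, 509 cells had no UMI of CD2, BLK or RHEX, and 6 of them (1.18%) lay there. A further 53 cells held exactly 1 CD2 UMI with BLK or RHEX, of which 22 (41.5%) lay there. The cells without CD2, BLK and RHEX thus lay mostly among the CD2+ cells. Cluster 8, led by cell cycle genes such as TOP2A, held 11 members.

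**Figure D1:**
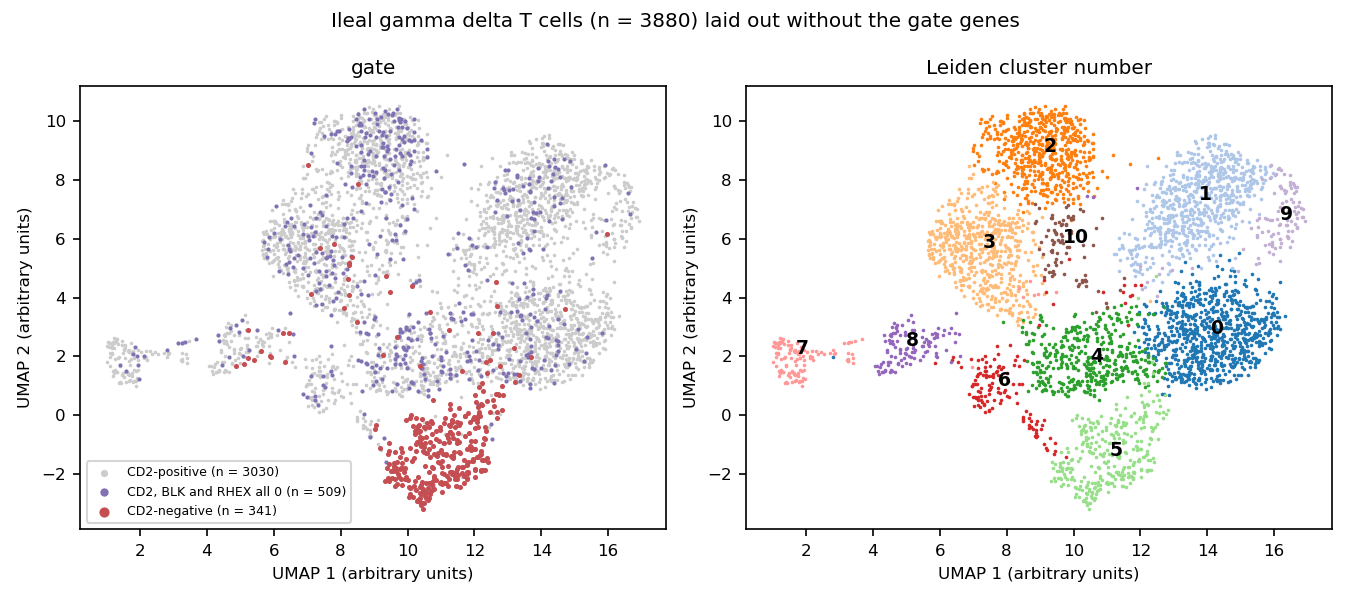
Layout of the 3880 ileal CD3E- and TRDC-positive cells (1 point per cell, UMAP axes in arbitrary units) made without the 9 genes of the rule, coloured by gate on the left and by cluster number on the right. Most of the 341 CD2- γδ T cells (red) gather in cluster 5, which holds 284 of them, while the 509 cells without UMIs of CD2, BLK and RHEX (purple) are spread over the other clusters.

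How frequent the cells were in tissue with and without Peyer's patches was compared first. Among CD3E-positive cells (CD79B, MS4A1 and EPCAM absent), members were 3.22% (exact binomial 95% interval 2.43 to 4.17) of 1710 cells in PP pig 1 and 4.30% (3.39 to 5.37) of 1721 in PP pig 2. In non-PP they were 1.25% (0.891 to 1.71) of 3116 cells in pig 1 and 2.23% (1.69 to 2.89) of 2506 in pig 2. Both PP libraries lay above both non-PP libraries, with means of 3.76% ± 0.766 and 1.74% ± 0.695 (SD, n = 2 each), and the difference was 2.01 percentage points (exact permutation test, two-sided, p = 0.333, the smallest this test can give with 2 libraries a group). Whole ileum gave 2.18% (1.62 to 2.88) in pig 1 and 4.80% (3.75 to 6.04) in pig 2. These intervals cover counting error only.

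The direction depended on the denominator. Of all passing barcodes, members were 0.750% and 1.08% in PP of pigs 1 and 2 and 0.998% and 1.48% in non-PP, a difference of -0.327 points in the other direction. CD3E-positive cells were 23.3% and 25.0% of the passing barcodes in PP and 79.7% and 66.4% in non-PP. Among CD3E- and TRDC-positive cells, members were 13.0% and 15.8% in PP, 3.58% and 6.44% in non-PP, and 7.80% and 16.9% in whole ileum.

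In blood the same rule took a larger share of the γδ T cells. Among CD3E- and TRDC-positive cells, members were 6.69% (5.66 to 7.83) of 2139 ileal cells in pig 1 and 11.4% (9.92 to 13.0) of 1741 in pig 2. The blood cells that met the rule, 236 and 313 in number, were 42.7% (38.5 to 46.9) of 553 and 57.7% (53.5 to 61.9) of 542. The means were 9.03% ± 3.31 in ileum and 50.2% ± 10.7 in blood (SD, n = 2 pigs each), a difference of -41.2 points (exact permutation test, two-sided, p = 0.333, the smallest possible). It was -41.4 points without the library labelled whole ileum pig 1 and -47.0 points with every barcode thinned to 1250 UMIs. With a minimum of 2500 UMIs it narrowed to -19.3 points. Median UMIs of members were 2398 to 2982 in the ileal libraries and 2043 and 2275 in blood, where CD2+ γδ T cells had 4370 and 3555.5.

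**Figure D2:**
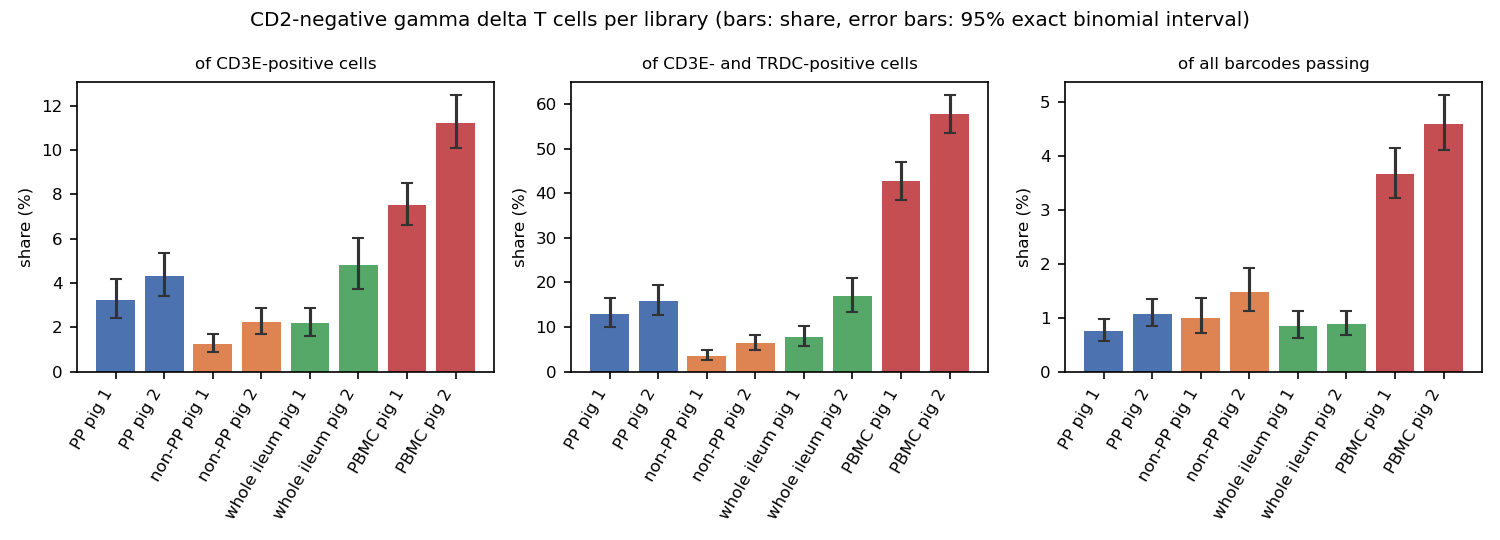
Share of CD2- γδ T cells in each library among CD3E-positive cells (left), CD3E- and TRDC-positive cells (middle) and all passing barcodes (right), in percent, with exact binomial 95% intervals as error bars. Members are 57.7% of the CD3E- and TRDC-positive cells in PBMC pig 2 and 3.58% in non-PP pig 1, and the order of PP and non-PP turns between the left and the right panel.

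CD2- γδ T cells were next compared with the CD2+ γδ T cells beside them in the ileum, to ask which further genes separate the sets. Among the genes higher in members were some for lymphocyte traffic and cytokine receptors and that for IL-26, and among the lower ones were some for granule proteins, natural killer receptors and epithelial residence. UMIs were summed per pig and tested with edgeR's quasi-likelihood test over 7253 genes outside the rule, and a gene was called at an adjusted p under 0.05 and a log2 difference beyond 1. Higher in members were 138 genes (1.9% of those tested) and lower 78 (1.08%), and without the library labelled whole ileum pig 1 95 and 52. With either pig left out, 5 to 7 genes were higher and 5 lower. When the 509 cells without CD2, BLK and RHEX were counted among the members, 5 were higher and 0 lower (303 and 150 at an unadjusted p under 0.05), and 54 of the 55 genes examined singly lost their call, so the differences below are those of BLK- or RHEX-positive cells. Non-PP gave 39 and 56 of the members of pigs 1 and 2 but 861 and 747 of the CD2+ cells. The part of dissection in the differences between the sets was not tested. With UMIs summed per library instead of per pig 186 genes were higher and 152 lower. That fit held no term for dissection and took libraries of the same pig as replicates.

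Genes of the naive state and of recirculation were higher in members: 5 of 13 tested rose and 0 fell, with a median log2 difference of 1.91 against -0.01 over all genes tested. CCR7, the receptor that guides lymphocytes into lymph nodes and Peyer's patches, was 106 and 127 CPM in PP of pigs 1 and 2, 17.3 and 93.8 in non-PP and 102 and 40.7 in whole ileum. All 6 libraries of members but non-PP pig 1 lay above the 2.89 to 30.1 CPM of the CD2+ cells by library (log2 difference of the sums per pig 2.85 ± 0.61, adjusted p = 0.0305, here and below with its SE). KLF2, a transcription factor that drives homing receptor genes, was 59.3 and 84.2 CPM in members of pigs 1 and 2 and 12.8 and 11.8 in CD2+ cells (2.64 ± 0.26, adjusted p = 0.000881). S1PR1, the receptor for exit into lymph and blood, was 34.7 and 23.3 against 10.0 and 5.91 CPM (1.91 ± 0.45, adjusted p = 0.0473). Its call was lost with sums per library (adjusted p = 0.0554), with doublets removed (0.0627), against CD2+ cells without BLK and RHEX (0.0552), with a minimum of 2500 UMIs (0.0897), without the library labelled whole ileum pig 1 (0.0814) and without the BLK or RHEX requirement (0.406). The other genes that rose were the transcription factor gene LEF1 (2.47 ± 0.51, adjusted p = 0.0256) and IL7R, the receptor of the survival cytokine IL-7 (2.01 ± 0.45, adjusted p = 0.0381). In none of the 5 did the pigs overlap between the sets.

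Some receptors for cytokines and chemoattractants were also higher. Of 17 cytokine receptor genes tested 5 rose and 0 fell (median 0.43). TNFRSF1B, a TNF receptor, was 255 and 228 CPM against 95.9 and 101 (1.38 ± 0.18, adjusted p = 0.00255), and IL4R was 112 and 118 against 37.3 and 44.0 CPM (1.60 ± 0.19, adjusted p = 0.00206). IL6R was 53.1 and 64.5 against 8.71 and 10.2 CPM (2.73 ± 0.39, adjusted p = 0.00406), and IL21R and IL7R made up the 5. Of 12 chemoattractant receptor genes 4 rose and 0 fell (median 0.57). GPR183, an oxysterol receptor that positions lymphocytes in lymphoid tissue, was 225 and 217 against 52.7 and 66.9 CPM (1.98 ± 0.24, adjusted p = 0.00206), CCR4, which binds CCL17 and CCL22, 24.5 and 25.1 against 1.48 and 1.18 CPM, and CCR7 and S1PR1 were the others. CCR9, the gut-homing receptor, was 186 and 217 CPM in members and 187 and 198 in CD2+ cells and did not pass (0.16 ± 0.39, adjusted p = 0.917). Of 10 genes of type 1 and type 2 responses 2 rose, CCR4 and PTGDR2, and 0 fell (median 0.48).

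Among Src-family kinases and other antigen receptor signalling genes, 1 of 21 rose and 4 fell (median -0.74). The gene that rose was SAMSN1, an adaptor protein that restrains lymphocyte activation. It was 597 and 527 CPM in PP of pigs 1 and 2, 563 and 590.4 in non-PP and 448 and 471 in whole ileum. Each library of members lay above the 87.5 to 145 CPM of the CD2+ cells (2.51 ± 0.35, adjusted p = 0.00406). SAMSN1 was read in 242 members (71.0%), against 22.7% of CD2+ cells and 7.90% of B cells, and with every cell thinned to 1250 UMIs in 47.2%, 10.9% and 3.02%. RefSeq places it at chr13:179431494-179509359 on Sscrofa11.1.

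Among the genes that fell were kinases and coreceptors of T cell receptor signalling. LCK, the Src-family kinase that starts signalling from the receptor, was 69.5 and 94.95 CPM against 609 and 598 (-2.77 ± 0.22, adjusted p = 0.000266), and FGR, another Src-family kinase, 12.3 and 8.96 against 96.6 and 85.1 CPM (-3.01 ± 0.37, adjusted p = 0.00206). UBASH3A, a phosphatase-like brake on the receptor, fell too (-1.69 ± 0.32, adjusted p = 0.0152). CD6, a coreceptor that binds ALCAM, gave 3 UMIs in all members together, against 97.1 and 86.7 CPM in CD2+ cells (-4.88 ± 0.63, adjusted p = 0.00275). Of 14 coreceptor and CD2 family genes, CD6, CD8A and CD244 fell and SLAMF7 rose (median 0.08). CD8A was 57.2 and 55.5 against 298 and 243 CPM (-2.17 ± 0.44, adjusted p = 0.0218). CD5, a close relative of CD6, was 69.5 and 57.3 against 105 and 108 CPM and did not pass (-0.67 ± 0.43, adjusted p = 0.541).

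Of the genes of the type 17 programme, that of lymphocytes making IL-17 and IL-22, 3 of 11 rose and 0 fell (median 1.07). IL26, which encodes a cytokine of this programme, was 377 and 151 CPM in PP of pigs 1 and 2, 961 and 132 in non-PP and 128 and 110.4 in whole ileum. CD2+ cells held 6.84 to 55.8 CPM by library, below every library of members (3.73 ± 0.66, adjusted p = 0.0152). The call did not hold without the library labelled whole ileum pig 1 (adjusted p = 0.0723), with DESeq2 (0.434) or without the BLK or RHEX requirement (0.35). IL26 was read in 101 members (29.6%), from 26 of 39 in non-PP pig 1 to 9 of 68 in whole ileum pig 2, against 4.03% of CD2+ cells and 0.516% of B cells.

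IL22, which neighbours IL26 at chr5:32599522-32604507 (IL26 at chr5:32568189-32583278), was read in 27 members, 14 of which also held IL26. Its UMIs were uneven: 64 of the 76 in non-PP pig 2 came from 1 cell, and the log2 difference did not pass (1.83 ± 0.60, adjusted p = 0.192). IL17A and IL17F were read in 1 member each, a share of 0.293% (exact binomial 95% interval 0.00742 to 1.62). The other type 17 genes that rose were MAF, a transcription factor of cytokine-producing T cells, at 71.5 and 75.2 against 10.0 and 8.04 CPM (3.10 ± 0.34, adjusted p = 0.00179), and TNFSF11, which encodes RANKL, at 26.6 and 21.5 against 0.742 and 0.945 CPM (4.81 ± 0.60, adjusted p = 0.00215). Among 10 genes of γδ identity and the receptor complex (median -0.18), GATA3, a factor of T cell development and type 2 responses, rose, at 159 and 116 against 50.8 and 50.8 CPM (1.52 ± 0.23, adjusted p = 0.00523), and TRAT1, an adaptor that stabilises the receptor, fell (-2.54 ± 0.31). Of 15 cytokine and chemokine genes tested edgeR called 0 and DESeq2 1, with 3 at an unadjusted p under 0.05 (median 0.08).

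Several genes of killing were lower in members. Of 15 cytotoxic granule genes 4 fell and 1 rose (median -0.83). GZMB, a protease that triggers apoptosis, was 826 and 1111 CPM against 7633 and 7808 (-2.90 ± 0.23, adjusted p = 0.000266), and GNLY, which encodes the membrane-lysing granulysin, 580.5 and 611 against 5279 and 6615 CPM (-3.23 ± 0.59, adjusted p = 0.014). The other genes that fell were both annotated as GZMA, between which reads may be shared (-4.07 ± 0.37 for ENSSSCG00000016902 and -2.66 ± 0.51 for ENSSSCG00000016903). Free RNA in droplets adds UMIs to cells that do not express a gene, and ileal B cells, which should lack these genes, held GZMB at 172 and 148 CPM and GNLY at 183 and 142 CPM over the libraries of a pig. Within libraries members were not always above B cells: GNLY was 87.9 CPM in members and 123 in B cells of PP pig 2 and 243 and 402 in whole ileum pig 1, where GZMB was 333 and 337. SRGN, the proteoglycan core of secretory granules, rose, at 3052 and 3085 against 1252 and 1441 CPM (1.28 ± 0.19, adjusted p = 0.00543). PRF1, which encodes perforin, did not pass (-1.03 ± 0.26, adjusted p = 0.0663).

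Of 12 natural killer receptor and adaptor genes 3 fell and 1 rose (median -1.27). KLRC1, a lectin-like receptor, fell (-4.47 ± 0.74), as did FCER1G, an adaptor of activating receptors, at 133 and 127 against 993 and 930.3 CPM (-2.80 ± 0.33), and CD244 (-2.01 ± 0.36). SLAMF7, a receptor of the CD2 family, was 125 and 122 against 21.5 and 14.7 CPM (2.84 ± 0.32, adjusted p = 0.00179). Members thus held less of some natural killer receptors and more of 1 other.

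Of 15 genes of tissue residence and gut homing 4 fell and 1 rose (median -0.60). ITGAE, the αE integrin chain that holds lymphocytes to epithelial E-cadherin, was 153 and 100.3 against 456 and 321 CPM (-1.54 ± 0.27, adjusted p = 0.0128). ENTPD1, the ectoenzyme CD39 (-3.59 ± 0.43), CDH17, an adhesion molecule of gut epithelium (-3.16 ± 0.42), and GPR55 (-1.70 ± 0.39) fell with it, and NR4A1, a nuclear receptor induced by receptor signalling, rose (1.28 ± 0.25). Among 15 costimulation and checkpoint genes (median 0.39), PDCD1, which encodes PD-1, was 110.4 and 94.95 against 16.5 and 19.9 CPM (2.58 ± 0.46, adjusted p = 0.0133). TNFRSF9 (2.20 ± 0.23), LAG3 (2.17 ± 0.40) and ICOS (1.11 ± 0.26) rose too, and CD200R1 fell (-4.10 ± 0.49).

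Of 16 immediate early and heat shock genes 5 rose and 0 fell (median 0.91), and NFKBIA, the NF-κB inhibitor, was among them (1.88 ± 0.31, adjusted p = 0.00833). In the lists of MHC class II (5 tested), interferon-stimulated (17), cell cycle (16), B cell (5), epithelial (7) and myeloid and mast cell genes (9) edgeR and DESeq2 each called 0, with 2 interferon-stimulated genes, 1 B cell, 1 epithelial and 2 myeloid and mast cell genes at an unadjusted p under 0.05. Of 10 αβ T cell markers CD8A and THEMIS fell and ICOS rose.

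Outside the lists, the largest differences with at least 50 CPM in the higher set were those of RGS16, a brake on chemokine receptor signalling (3.80 ± 0.33), C12orf75 (2.98 ± 0.61), S100A4 (2.90 ± 0.28), PLIN2, a lipid droplet coat protein (2.70 ± 0.32), and YBX3 (2.69 ± 0.36) among genes higher in members. RGS16 was read in 11.14% of members and 1.72% of CD2+ cells, but also in 11.11% of B cells. Lowest were ADGRG1, an adhesion receptor of cytotoxic lymphocytes (-4.60 ± 0.75), MFAP5 (-3.29 ± 0.37) and the kinase gene CAMK4 (-3.25 ± 0.44), beside genes named above. Without the library labelled whole ileum pig 1, 16 of the 55 genes examined singly lost their call with the direction kept: C12orf75, CCR7, CD8A, FOSL2, GPR55, the second GZMA gene, ICOS, IER5, IL21R, IL26, IL7R, ITGAE, NR4A1, PTGDR2, S1PR1 and THEMIS.

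**Figure D3:**
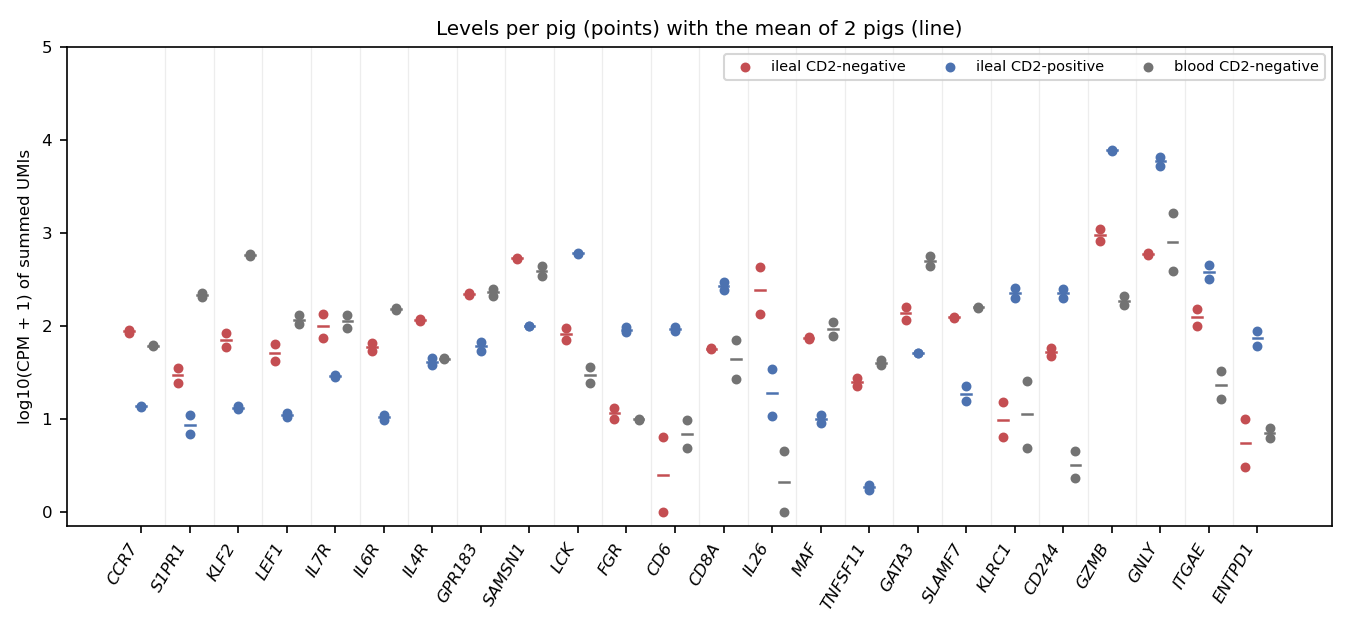
Level of 24 genes in ileal CD2-, ileal CD2+ and blood CD2- γδ T cells, as log10 of CPM + 1 of summed UMIs, with a point for each pig and a line at the mean of 2 pigs. SAMSN1 in members (542 and 530.3 CPM) lies above the CD2+ cells (99.9 and 100.5) in both pigs, and GZMB (826 and 1111 against 7633 and 7808) lies below them.

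Members were then compared with blood CD2- γδ T cells chosen by the same rule. Most immediate early genes tested, 8 of 15 checkpoint genes, 7 of 15 residence genes and all 5 MHC class II genes were higher in ileum, and 4 of 13 recirculation genes were lower. Over 7253 genes, 338 (4.66%) were higher in ileum and 218 (3.01%) lower, and without the library labelled whole ileum pig 1 271 and 160. With either pig left out 69 to 112 genes were higher and 17 to 31 lower. Ileal cells passed through mucus and epithelial removal, enzyme digestion, density centrifugation and dead cell removal, and blood cells through separation tubes, so tissue and preparation cannot be told apart. B cells of the same libraries, which shared both preparations, are given beside some genes.

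Of the recirculation genes 4 of 13 were lower in ileal members (median log2 difference -0.82 against 0.00 over all genes), and 0 were higher. KLF2 was 59.3 and 84.2 CPM in ileum against 573 and 592 in blood of pigs 1 and 2 (-2.94 ± 0.24, adjusted p = 7.34e-05), S1PR1 34.7 and 23.3 against 223 and 203 CPM (-2.82 ± 0.38, adjusted p = 0.00132). KLF3, another Krüppel-like factor, was also lower (-3.605 ± 0.79). B cells moved in the same direction in value, with KLF2 at 79.7 and 40.6 CPM in ileum against 659 and 656 in blood and S1PR1 at 6.75 and 3.56 against 143 and 132. CCR7 (0.59 ± 0.62) and IL7R (-0.02 ± 0.45) did not pass.

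Residence and gut-homing genes were higher in 7 of 15 and lower in 1 (median 2.27). RGS1, a regulator of chemokine receptor signalling, was 1421 and 1277 CPM in ileum against 26.3 and 47.0 in blood (5.23 ± 0.28, adjusted p = 7.97e-06), and in B cells 492 and 490.4 against 1.90 and 3.20. CCR9 was 186 and 217 against 15.8 and 11.7 CPM (3.96 ± 0.56, adjusted p = 0.0017), whereas B cells held 3.67 and 4.34 CPM in ileum against 9.70 and 19.4 in blood. CD69, a retention receptor of activated lymphocytes, was 303 and 242 against 42.1 and 73.0 CPM (2.27 ± 0.38, adjusted p = 0.00444) and ITGAE 153 and 100.3 against 31.6 and 15.7 CPM (2.53 ± 0.36, adjusted p = 0.00191). CD69 was also read in more B cells of ileum (43.6%) than of blood (16.7%), as was ITGAE (11.85% and 6.94%). ITGB7, the β7 integrin chain that pairs with αE and α4, was lower in ileum (-1.11 ± 0.22, adjusted p = 0.0124). The chemoattractant receptor list had 3 of 12 genes higher (CCR9, CXCR3 and CXCR4) and S1PR1 lower.

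Immediate early genes were higher in 12 of 16 and lower in 0 (median 2.81). JUN, an AP-1 subunit, was 505 and 462 CPM in ileum against 31.6 and 32.6 in blood (3.97 ± 0.19, adjusted p = 5.2e-06), and FOS, its partner, 319 and 244 against 0 and 6.52 CPM (6.27 ± 0.49, adjusted p = 5.26e-05). B cells were also higher in ileum for both, with JUN at 379.6 and 262 against 52.5 and 91.2 CPM and FOS at 249 and 157 against 10.8 and 15.6. TNFAIP3, the NF-κB brake A20, was 489 and 532 against 12.3 and 15.7 CPM in members (5.23 ± 0.29, adjusted p = 7.97e-06) and 33.1 and 21.6 against 5.52 and 6.78 in B cells.

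Checkpoint genes were higher in 8 of 15 and lower in 0 (median 3.52): ICOS, PDCD1, TNFRSF9, TNFRSF18, LAG3, HAVCR2, TIGIT and CD96. LAG3, an inhibitory receptor, was 149 and 106 CPM in ileum against 1.76 and 16.95 in blood (3.67 ± 0.55, adjusted p = 0.00245) and PDCD1 110.4 and 94.95 against 7.02 and 10.4 (3.57 ± 0.65, adjusted p = 0.00734). TNFRSF9, the costimulatory receptor 4-1BB, gave 155 UMIs in ileal members and 0 in blood, which is at least 65.9-fold higher against a floor of 3 UMIs over both blood libraries. HAVCR2, which encodes TIM-3, gave 33 and 0 UMIs, at least 14.03-fold. Both folds take UMIs as independent and leave out the spread between cells and pigs.

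All 5 MHC class II genes tested were higher (median 2.33). CD74, the invariant chain, was 2042 and 2198 CPM in ileum against 464 and 423 in blood (2.33 ± 0.19, adjusted p = 6.49e-05), and SLA-DRA, a class II α chain, 625 and 736 against 146 and 71.7 (2.74 ± 0.29, adjusted p = 0.000279). B cells, whose own class II level is high, had lower values in ileum than in blood, with CD74 at 6329 and 5208 against 7807 and 7247 CPM and SLA-DRA at 1929 and 1749 against 3318 and 2807. The order of the tissues was thus opposite in the 2 cell types, and that contrast was not tested.

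Cytotoxic granule genes were higher in 5 of 15 and lower in 0 (median 1.45). GZMB was 826 and 1111 CPM in ileum against 209 and 167 in blood (2.45 ± 0.23, adjusted p = 0.000137) and PRF1 108 and 120.0 against 33.4 and 27.4 (1.99 ± 0.33, adjusted p = 0.00454). By these sums ileal members lay between blood CD2- and ileal CD2+ cells for GZMB. By library they ranged from 333 CPM in whole ileum pig 1 to 2381 in non-PP pig 1. B cells held 83.1 to 957 CPM of GZMB in the ileal libraries and 42.4 and 72.7 in blood. The part of free RNA in this order was not tested. The GZMA gene ENSSSCG00000016902 gave 272 UMIs in ileal members and 2 in blood (ratio 174, counting interval 47.6 to 1440). B cells showed the same order of tissues for this gene, with 32.6 to 785 CPM in the ileal libraries and 1.71 and 3.77 in blood, and in whole ileum pig 1 they held 205 CPM against 115 in members. Cytokine receptors were higher in 7 of 17, among them TNFRSF1B (3.38 ± 0.23), IL21R (3.595 ± 0.53) and IL2RB (2.54 ± 0.45), and IL6R was lower (-1.28 ± 0.35). Of 15 cytokine and chemokine genes XCL1 (4.64 ± 0.63), CCL5 (3.01 ± 0.77), IFNG and TNFSF8 were higher, and LTB (-2.97 ± 0.46) and TNFSF14 (-1.63 ± 0.36) lower.

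Lineage factors moved in both directions. ID3, an inhibitor of E proteins that shapes γδ T cell development, was 102 and 62.7 CPM in ileum against 1148 and 1514 in blood (-3.96 ± 0.56, adjusted p = 0.00173), whereas its relative ID2 was 683 and 769 against 89.6 and 77.0 CPM (3.20 ± 0.26, adjusted p = 7.22e-05). GATA3 was 159 and 116 against 437 and 569 CPM (-1.81 ± 0.22, adjusted p = 0.00072) and TRAT1 was higher (3.08 ± 0.37), so that 2 of 10 identity genes rose and 2 fell. Signalling genes were higher in 4 of 21 (LCK, PTPN22, PLCG2 and CBLB) and lower in 3 (TXK, UBASH3A and GRAP2), and SAMSN1, at 542 and 530.3 against 446 and 347 CPM, did not pass (0.51 ± 0.34, adjusted p = 0.432). The type 1 and type 2 list had IFNG, STAT4 and CXCR3 higher of 10, natural killer receptors CD244 of 12, and cell cycle genes TYMS of 16. Of 17 interferon-stimulated genes edgeR and DESeq2 each called 0, with 3 at an unadjusted p under 0.05.

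Type 17 cytokines were read in ileal members and scarcely in blood. IL26 gave 287 UMIs in ileum and 2 in blood, both in 1 cell, a ratio of CPM of 183 with a counting interval of 50.2 to 1519. IL22 gave 133 and 0 UMIs, at least 56.5-fold higher. AHR, the aryl hydrocarbon receptor, was lower in ileum (-1.88 ± 0.40) and IRF4 higher on 15 and 2 UMIs. Outside the lists, RGS16 (79 and 0 UMIs) was at least 33.6-fold and the nuclear receptor NR4A3 (149 and 0 UMIs) at least 63.4-fold higher. CRTAM, an adhesion receptor of activated lymphocytes, gave 237 UMIs in ileum and 1 in blood (ratio 302, counting interval 53.7 to 11990), and GPR34 gave 86 and 1 (ratio 109.7, 19.2 to 4383). These folds and counting intervals take UMIs as independent and leave out the spread between cells and pigs.

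Some of the largest differences were of genes known from other cells. FABP6, an ileal enterocyte gene, gave 384 UMIs in ileal members and 2 in blood. By library it was 271 and 53.7 CPM in PP, 1853 and 270.4 in non-PP and 160.1 and 151 in whole ileum, and in B cells of the same libraries 256 and 54.0 in PP, 1523 and 250.5 in non-PP and 102 and 84.4 in whole ileum, so members and B cells of a library lay close to each other. Of 7 epithelial markers tested edgeR called FABP6 and DESeq2 called 5, all higher in ileum. HBB, a red cell gene, was 6.13 and 12.5 CPM in ileal members and 18020 and 3721 in blood (-10.06 ± 1.92), where B cells held 12095 and 1527. Of 9 myeloid and mast cell markers both tools called 0, with 0 at an unadjusted p under 0.05. The part of free RNA in these genes was not tested.

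The other genes lowest in ileum were FUT7, which makes selectin ligands (-5.11 ± 0.79), VCL, which encodes vinculin (-4.33 ± 0.77), FAM89A (-4.02 ± 0.46), DPPA5 (-4.00 ± 0.97), TNFAIP8L2 (-3.73 ± 0.72) and WFDC2 (-3.36 ± 0.65), beside ID3 and KLF3. FUT7 gave 3 UMIs in all ileal members and stood at 93.1 and 119 CPM in blood. Without the library labelled whole ileum pig 1, 14 of the 92 genes examined singly lost their call. Of those named above these were AHR, DPPA5, GPR55, GRAP2, IL6R, TNFRSF18, TNFSF8, TXK and TYMS.

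**Figure D4:**
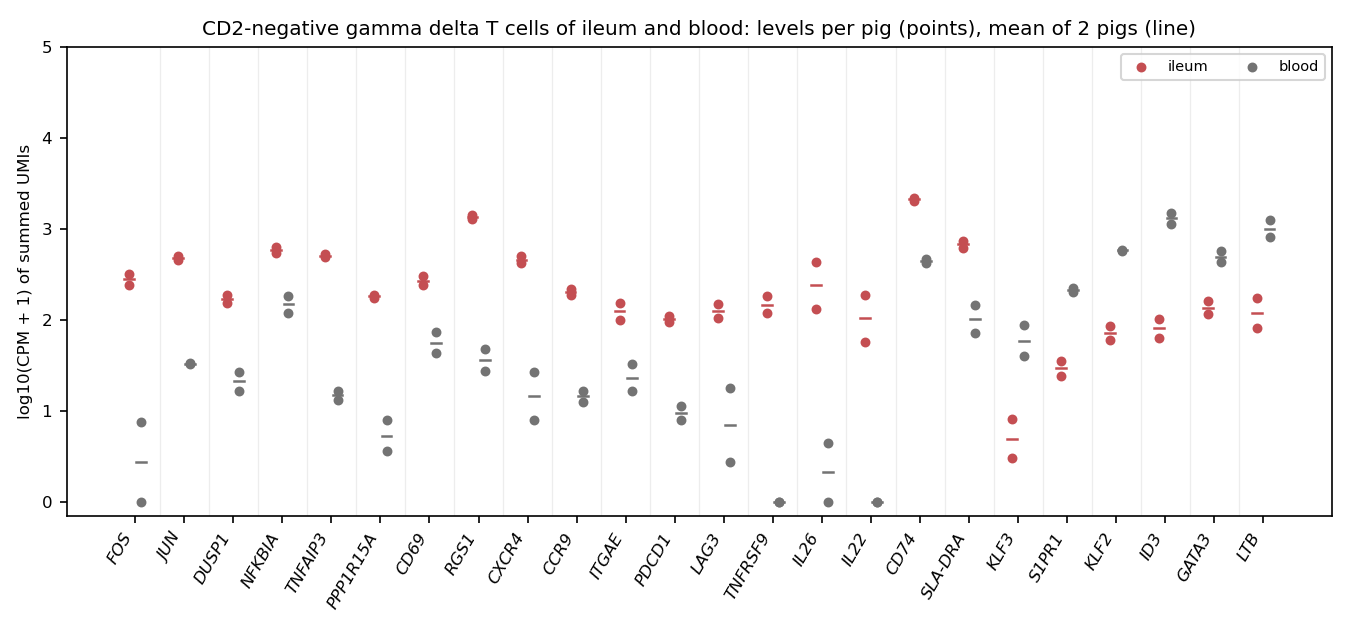
Level of 24 genes in CD2- γδ T cells of ileum and blood, as log10 of CPM + 1 of summed UMIs, with a point for each pig and a line at the mean of 2 pigs. JUN in ileum (505 and 462 CPM) lies above blood (31.6 and 32.6), and KLF2 in ileum (59.3 and 84.2) lies below blood (573 and 592).

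Whether the difference between CD2- and CD2+ cells was the same in ileum and blood was tested with an interaction term. The difference was more positive in ileum for 10 genes (0.138% of 7253) and more negative for 3 (0.0414%). With the pig as a replicate block, these were 82 and 41. KLF2 was 59.3 and 84.2 CPM in CD2- cells against 12.8 and 11.8 in CD2+ cells of ileum, and 573 and 592 against 408 and 434 in blood (2.10 ± 0.33, adjusted p = 0.0439), so CD2- cells were higher in both tissues in value and by more in ileum. ICOS, JUN, TNFRSF1B, STX11, ITGB2 and RILPL2 had the higher value in CD2- cells in ileum and in CD2+ cells in blood. ICOS was 40.9 and 26.9 against 16.1 and 16.8 CPM in ileum and 1.76 and 3.91 against 15.4 and 15.7 in blood (3.40 ± 0.54, adjusted p = 0.0439). STX11, a syntaxin of granule release, was 108 and 124 against 25.6 and 18.2 CPM in ileum and 17.6 and 20.9 against 38.2 and 35.8 in blood (3.36 ± 0.37, adjusted p = 0.00918). The term was 2.04 ± 0.24 for JUN, 2.54 ± 0.30 for TNFRSF1B, 3.06 ± 0.49 for the β2 integrin gene ITGB2 and 2.47 ± 0.31 for RILPL2.

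RCAN3, a calcineurin regulator, went the other way, at 51.1 and 43.0 against 80.1 and 59.8 CPM in ileum and 232 and 202 against 42.9 and 62.6 in blood (-2.62 ± 0.35, adjusted p = 0.0181), as did RASA1 (-1.90 ± 0.26) and ITM2B (-1.68 ± 0.23). For SAMSN1 the term was -0.47 ± 0.50 and did not pass. Without the library labelled whole ileum pig 1 the counts were 5 and 3, with the adjusted p of ICOS at 0.105, of ITGB2 at 0.0731 and of KLF2 at 0.153. With the 509 cells without BLK and RHEX included, edgeR called 0 genes in either direction, with 278 and 299 at an unadjusted p under 0.05. A minimum of 2500 UMIs left counts of 1 and 0, with 308 and 275 at an unadjusted p under 0.05.

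Members were also compared with ileal T cells without TRDC that held CCR7, which naive T cells are known for (CD3E and CCR7 present, TRDC, CD79B, MS4A1 and EPCAM absent, 744 cells). Higher in members were 88 genes (1.21% of 7252, CCR7 left out) and lower 48 (0.662%), and without the library labelled whole ileum pig 1 44 and 23. With either pig left out, 3 were higher and 0 to 1 lower. Of 12 recirculation genes 1 fell and 0 rose (median -0.66): S1PR1 was 34.7 and 23.3 CPM in members and 246 and 184 in CCR7+ cells (-2.90 ± 0.37, adjusted p = 0.003). KLF2 (-1.002 ± 0.24, adjusted p = 0.074) and LEF1 (-1.16 ± 0.46) did not pass. The CCR7+ cells were chosen by a recirculation gene, and what that choice adds to these differences was not tested.

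Of 10 αβ T cell markers 6 fell and 0 rose (median -3.41). Members were chosen by TRDC without CD8B, and the CCR7+ cells by the absence of TRDC. Lower αβ markers follow in part from this choice and are no check of the label. CD4 gave 1 UMI in all members, against 84.2 and 91.8 CPM in CCR7+ cells (-6.42 ± 0.72, adjusted p = 0.00154). CTLA4 (-6.26 ± 0.66), CD28, the costimulatory receptor of αβ T cells (-5.52 ± 0.77), CD40LG, the signal of helper T cells to B cells (-4.17 ± 0.72), CD5 (-2.27 ± 0.43) and ICOS (-1.81 ± 0.24) were the others. Macrophage genes were lower too, 4 of 9 in the myeloid and mast cell list: C1QA (-5.34 ± 0.90), C1QB (-5.47 ± 1.00), C1QC and CST3. C1QA was 43.5 and 117 CPM in CCR7+ cells and 14.3 and 4.19 in B cells, and its part in this comparison was not tested.

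Higher than in CCR7+ cells was IL26, with 287 UMIs in members and 5 in CCR7+ cells (7.11 ± 1.01, adjusted p = 0.00774). ZNF683, the residence factor Hobit, was 104 and 106 CPM against 1.43 and 0.866 (6.40 ± 0.79, adjusted p = 0.00231). SAMSN1 was 542 and 530.3 against 85.7 and 65.8 CPM (2.82 ± 0.37, adjusted p = 0.00335), so it was higher in members than in both other T cell sets. TNFRSF9 (3.70 ± 0.29), CD96 (3.35 ± 0.44), HVCN1, a proton channel (3.17 ± 0.32), the actin bundler FSCN1 (3.15 ± 0.62), DAPK2 (3.09 ± 0.64), MAP3K8 (3.08 ± 0.36) and PIK3AP1 (2.90 ± 0.25) followed. CD247 (1.93 ± 0.26), GATA3 (1.65 ± 0.24) and ZAP70, the kinase recruited to CD247 (1.01 ± 0.19), were higher, and LCK was lower (-2.54 ± 0.22). The remaining genes lowest in members were CD6 (-5.04 ± 0.63), the protease gene LGMN (-4.99 ± 0.48), PCED1B (-4.05 ± 0.49) and IL6ST, the shared receptor chain gp130 (-3.12 ± 0.64). Without the library labelled whole ileum pig 1, DAPK2, FSCN1, IL6ST and ZAP70 lost their calls among these, and C1QA, C1QB and C1QC did not pass the filter on low counts.

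Members of PP and non-PP were compared by library over 2299 genes. With edgeR 0 genes were higher in PP (0% of those tested) and 3 lower (0.13%), with 59 and 72 at an unadjusted p under 0.05, and DESeq2 gave 1 and 4. All 3 were cytotoxic granule genes. GNLY was 322 and 87.9 CPM in PP of pigs 1 and 2, 1524 and 1622 in non-PP and 243 and 169 in whole ileum (PP minus non-PP -2.97 ± 0.42, adjusted p = 0.00831). GZMA (ENSSSCG00000016902) was 87.3 and 92.8 CPM in PP, 433 and 833 in non-PP and 115 and 87.2 in whole ileum (-2.85 ± 0.36, adjusted p = 0.00536), and GZMB was 354 and 429.6, then 2381 and 1953, and in whole ileum 333 and 1034 CPM (-2.48 ± 0.39, adjusted p = 0.0198). The non-PP libraries lay above those of PP and whole ileum for all 3 genes.

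The same genes were higher in non-PP outside the members. GNLY was 64.4 and 123 CPM in B cells of PP and 337 and 1275 in the 15 and 42 B cells of non-PP, and 2097 and 2958 against 13558 and 24740 CPM in barcodes of 1 to 100 UMIs, which hold mostly free RNA. GZMB was 83.1 and 137 against 230.3 and 957 CPM in B cells. Single cells carried much of the GNLY: 1 member held 132 of 176 UMIs in non-PP pig 1, 1 held 112 of 294 in non-PP pig 2, and 1 held 52 of 70 in PP pig 1. Among the 284 members of cluster 5 alone, edgeR called 0 genes in either direction, with 34 higher and 44 lower at an unadjusted p under 0.05. The part of free RNA in this comparison was not tested. With the pig as a replicate block 6 genes were higher and 9 lower, and without the library labelled whole ileum pig 1 3 and 6.

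**Figure D5:**
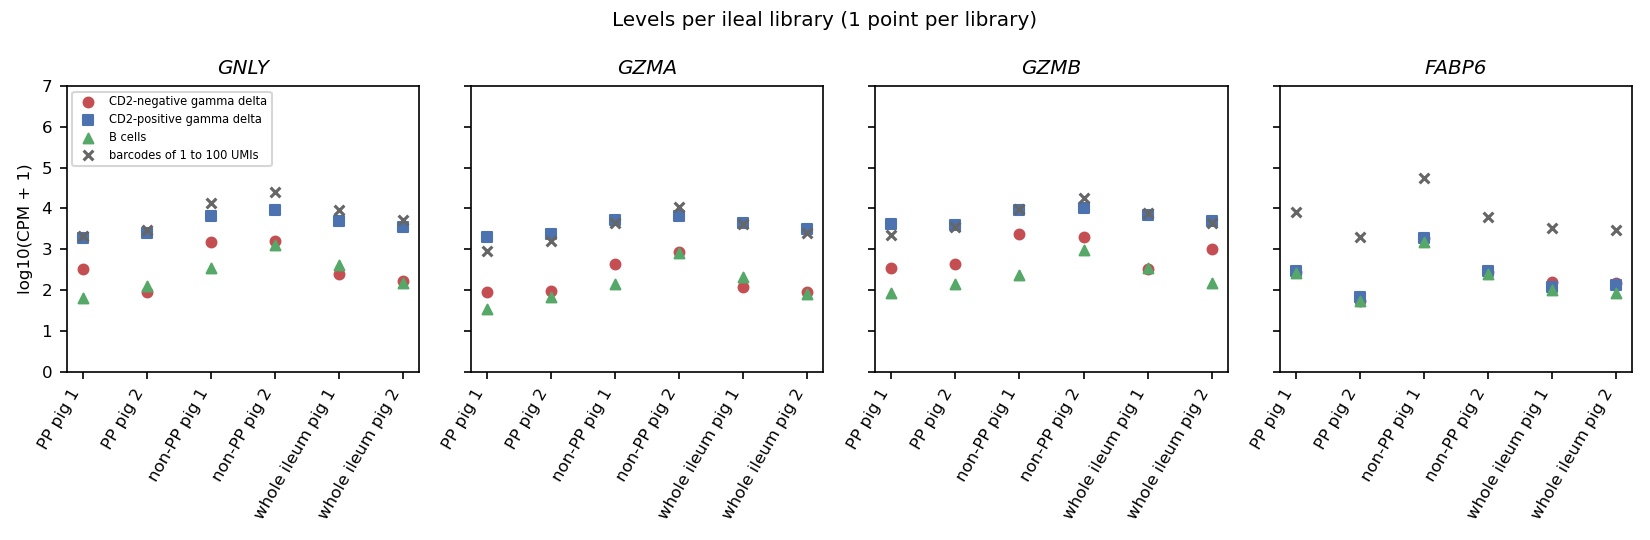
Level of GNLY, GZMA (ENSSSCG00000016902), GZMB and FABP6 in each ileal library, as log10 of CPM + 1, in CD2- and CD2+ γδ T cells, B cells and barcodes of 1 to 100 UMIs. GNLY in members is 1524 and 1622 CPM in non-PP and 322 and 87.9 in PP, B cells and low-UMI barcodes are also higher in non-PP, and FABP6 in members lies close to that in B cells in each library.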

How the data were processed

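Single-cell RNA was measured with 10x droplets in 6 ileal and 2 blood libraries of 2 pigs, and 4 sequencing runs of a library are 1 replicate. The deposited counts are whole UMI counts per gene and barcode that the authors made by alignment to Sscrofa 11.1 with annotation release 97. The submitters' processing notes name Cell Ranger 4.0.6. Every barcode is in them, so the filters on free RNA, damaged cells and doublets that the study describes were not yet applied. All 8 matrices mapped to a sample. Free RNA was not subtracted, which raises low values of genes that are abundant in a library.

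Barcodes with at least 1250 UMIs, 550 genes and at most 12.5% of UMIs from 13 mitochondrial genes were kept (Python 3.11.15, scanpy 1.11.5, scipy 1.17.1, pandas 2.3.3), which left 3776 to 7704 per library. No doublets were removed beyond the terms of the rule. Removal at a scrublet score above 0.25 was an alternative. The 3880 ileal CD3E- and TRDC-positive cells were clustered on 2000 variable genes, 20 principal components and 15 neighbours (Leiden, resolution 1, leidenalg 0.10.2). Of 25880 genes, 17733 had a symbol in the matrices, 19 were named from the study's gene list, 969 from a table of gene names, and 7159 stayed unnamed. Members, lists and tests were chosen with earlier results of these data known.

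UMIs of 5 classes of cells were summed per pig into 10 sums and fitted together with edgeR 4.0.16 (R 4.3.3, filterByExpr, TMM, quasi-likelihood test, Benjamini-Hochberg adjustment over all genes tested). PP and non-PP were compared on sums per library. Genes of the rule were not tested. Shares were compared with exact permutation tests, and their intervals are exact binomial (Clopper-Pearson). On simulated data 88.0% of genes changed 4-fold were recovered for CD2- against CD2+ cells (6820 genes) and 76.6% for PP against non-PP (2031 genes). Of genes changed 2-fold 22% and 6.67% were recovered, and 8 and 5 unchanged genes were called. The simulation gave all genes the same fixed spread and changed only genes above a set level. Recovery of genes whose UMIs lie in few cells was therefore not tested. By their labels, sums of 1 pig in different classes come from the same animal, so the pig number pairs them by origin. The correlations of the differences between pigs over 7259 genes were 0.0805 to 0.391 over pairs of classes. The fit with the pig as a replicate block was an alternative, and its counts stand beside a result where they moved by over 1.5 times.

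Named genes were the genes of the rule, members of fixed lists by their counts with up to 5 examples of high mean CPM among those called, SAMSN1 and IL26, and the 10 largest differences in each direction (5 for the interaction) among genes called with at least 50 CPM and the same direction in both pigs. List genes given without a call, and the genes shown as values of other cells, were chosen after their values were seen. Alternatives were RLE size factors, no filter on low counts, DESeq2 1.42.0, the replicate block, leaving out each pig or the library labelled whole ileum pig 1, sums per library, removal of doublets, no BLK or RHEX requirement, CD2+ cells without BLK and RHEX, a minimum of 2500 UMIs, and members of the leading cluster only. Protein and promoter sequences were not used here. Results of some genes of the lists are not reported here, though counts over a list include them.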

Additional observations from a re-analysis of the deposited data

Results flagged for a closer look

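For 10 named genes, among the 10 called as more positive in ileum and the 3 called as more negative, the difference between CD2- and CD2+ γδ T cells differed between ileum and blood by a test of the difference itself, the interaction term of edgeR's quasi-likelihood test. The term, as a log2 difference in ileum minus that in blood, was 3.36 for STX11, 3.06 for ITGB2, 2.54 for TNFRSF1B, 2.47 for RILPL2, 2.10 for KLF2, 3.40 for ICOS and 2.04 for JUN. It was -2.62 for RCAN3, -1.90 for RASA1 and -1.68 for ITM2B. The calls of ICOS, ITGB2 and KLF2 did not hold without the library labelled whole ileum pig 1. All 10 genes kept their direction but lost their call with a minimum of 2500 UMIs (adjusted p 0.126 to 0.272). The same was so without the BLK or RHEX requirement (adjusted p 0.242 to 0.485). In blood of pigs 1 and 2, median UMIs were 2043 and 2275 in CD2- cells and 4370 and 3555.5 in CD2+ cells. The part of UMIs per cell in these terms was not tested.

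A further 12 ileal barcodes outside the comparisons met the gene terms and the mitochondrial limit with 500 UMIs or more but fewer than 1250, with a median of 1012 UMIs. No control sample bears on them.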

How the results depend on the processing

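Of 2471 values of named genes under the alternatives, 1892 kept their direction and call, 578 kept the direction and lost the call, and 1 turned (UBASH3A in ileum against blood, 0.043 without the BLK or RHEX requirement). The share of members in PP minus non-PP turned to -0.327 points with all passing barcodes as the denominator, and was 1.96 to 2.07 points with 1 pig left out. Ileum minus blood was -46.4 to -36.0 points likewise. Counts of called genes, higher then lower, were as follows. With a minimum of 2500 UMIs they were 71 and 34 for CD2- against CD2+ cells, 166 and 96 for ileum against blood, 1 and 0 for the interaction (308 and 275 at an unadjusted p under 0.05) and 47 and 30 against CCR7+ cells. Without the BLK or RHEX requirement they were 5 and 0 for CD2- against CD2+ cells, 0 and 0 for the interaction, and 2 higher in PP. With no filter on low counts they were 226 and 199, 468 and 336 (ileum against blood), 226 and 102 (interaction), 183 and 152 (CCR7+ cells) and 15 and 10 (PP). With sums per library they were 186 and 152, 352 and 340, 48 and 53, and 147 and 108 in the first 4 of these comparisons. The fits on sums per library took libraries of the same pig as replicates. DESeq2 gave 60 and 20 for the interaction and 1 higher in PP. CD2+ cells without BLK and RHEX gave 20 and 15 for the interaction, and removal of doublets 6 lower. Members of the leading cluster gave 0 lower in PP by edgeR. Without the library labelled whole ileum pig 1 there were 5 higher for the interaction, 44 and 23 against CCR7+ cells, and 3 and 6 for PP. With 1 pig left out the ranges were 5 to 7 higher and 5 to 5 lower for CD2- against CD2+ cells, 69 to 112 and 17 to 31 for ileum against blood, 21 to 50 and 7 to 20 for the interaction, 3 to 3 and 0 to 1 against CCR7+ cells, and 5 to 6 and 9 to 12 for PP. In those fits the lone sum of a class was assumed to vary like the other classes. Where counts moved, the cause was not tested.

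With the pig as a replicate block the counts were 82 and 41 for the interaction and 6 and 9 for PP against non-PP, the other comparisons moved by at most 1.5 times, and no named gene lost its call. The block left the differences in shares as they were, with a smallest possible p of 0.5.

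Some calls rest on few UMIs, such as those of IRF4 and CD6, which gave 15 and 3 UMIs in ileal members.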
